A study of Mus musculus with 55 samples.

Results

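The infarcted left ventricle of non-diabetic C57BL/6J mice was compared between day 28 and day 7 after myocardial infarction, in 19 bulk RNA-seq libraries out of the 55 in the study. The libraries were chosen by their titles: 11 carry day 28 and non-diabetic, and 8 carry day 7 and non-diabetic. Both groups are non-diabetic, share the C57BL/6J background and the infarction, and are named as controls in their library names. The other 36 libraries come from infarcts of mice with type 1 or type 2 diabetes at the same days, and enter here through the shared estimate of spread and one closing comparison. Their library names carry hi_STZ for type 1 and lo_STZ_HFFD for type 2, with the same strain, tissue and infarction. The labels give neither age nor sex, nor do they say whether each library is 1 animal, so p-values measure the spread between these libraries. The submitters' design text describes a coronary artery tied off for good, a model without reperfusion, and mentions day 7 alone. The sampled piece can hold scar, border muscle and tissue attached to the surface of the heart.

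An infarct heals in stages. Dead muscle is first cleared by neutrophils and macrophages, then fibroblasts divide, become contractile myofibroblasts and lay down collagen, and new vessels grow. Later the cells leave or become quiet, and the collagen is crosslinked and organised into a mature scar. Day 7 falls in the proliferative stage and day 28 in the maturing stage of this sequence as it is usually described in mice.

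The count tables of both days held 56867 genes in common, of which 20421 were expressed enough to be tested. Of these, 6408 genes (31.4%) were higher and 6887 genes (33.7%) were lower at day 28 than at day 7 (edgeR quasi-likelihood test, Benjamini-Hochberg adjusted p at or under 0.05, the threshold for every call below). The change was at least 2-fold for 2516 of the genes that rose and for 2614 of the genes that fell. In 2566 genes (12.6%) all 11 day 28 libraries lay above all 8 day 7 libraries, and in 2326 genes (11.4%) all lay below. The median log2 change of all genes tested was -0.03. These shares are the background for every list below: about 1 gene in 3 moved in each direction.

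Day cannot be told apart from sequencing project, since the library names place all day 28 libraries in one project and all day 7 libraries in another. Depth was 57979612 to 84380994 counts per library at day 28, against 10756242 to 46812053 at day 7. The mitochondrial genome took 13.2 to 21.34% of counts at day 28, against 3.17 to 9.23% at day 7. Between the count tables, 22 genes held no count in any of the 31 day 28 libraries of the study and at least 20 counts in each of the 24 day 7 libraries, and none of them is described here; the cause was not tested. At day 7, replicate 4 was the shallowest library, and replicate 5 stood apart in many genes. Some values that change with them are given without them as well, but not every such value.

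The text describes 132 of the 248 genes that the rule for named genes gives, chosen from them after their values were seen. Of the 132 genes, 28 share exon bases with another gene, so their counts are uncertain where reads of both were not separated: Myh6, Myh7, Tnni3, Nppa, Cpt1b, Cox5a, mt-Nd1, Col5a1, Col3a1, Lox, Eln, Prelp, Runx2, Pi16, Timp4, Bmp6, Tnc, Myoc, Spp1, Il1b, Mzb1, Irf7, Serpinb9b, Myh1, Atp2a1, Foxm1, Hk3 and Arntl. Ighm, Ccl21a and Hbb-bs have near-identical copies, and mitochondrial genes have copies in the nuclear genome.

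Levels are CPM, the usual counts-per-million unit, over library sizes scaled by TMM, and a fold change is a log2 value of day 28 over day 7 with its standard error (SE). Where a gene is said to rise, fall or change by a number, that number is on the log2 scale. Muscle genes made up a different share of the RNA at each day, with a summed level of 20 contractile genes of 50790.4 to 105042 CPM at day 28, against 12357 to 39343 CPM at day 7. The mean log2 CPM of these genes, called the contractile score here, was 10.66 to 11.74 at day 28 and 8.35 to 10.22 at day 7, so the groups did not overlap. In a bulk sample, fewer cells of a type and less RNA per cell cannot be told apart. Most lists below are therefore also given from a fit with this score as a covariate, in which 22.1% of all genes were higher and 23.5% were lower. Because the score separates the days, that fit leans on the spread of the score within the groups of all 55 libraries.

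**Figure D1:**
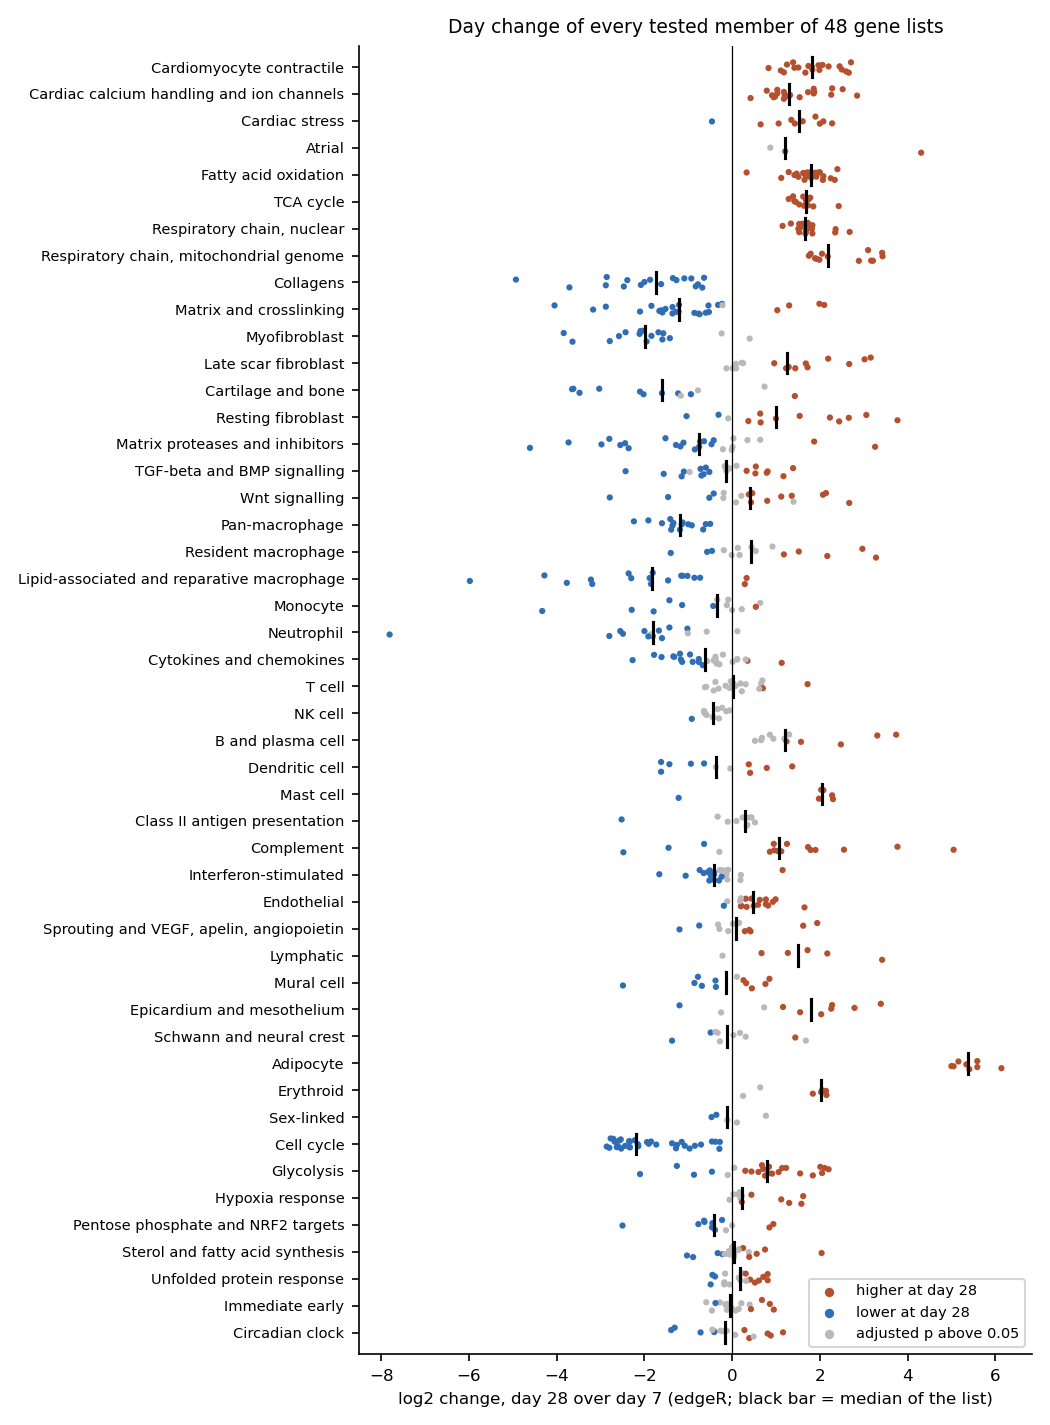
Log2 change, day 28 over day 7 (x axis), of every tested member of 48 gene lists (rows, by theme). Each point is a gene, red where it was called higher, blue where it was called lower and grey otherwise, and the black bar is the list's median. Muscle and mitochondrial lists lie to the right (contractile median 1.82), and the collagen, myofibroblast and cell cycle lists lie to the left (medians -1.75, -1.99 and -2.18).

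Genes of dividing cells were lower at day 28 in every member of the list tested. All 36 cell cycle genes fell, with a median log2 change of -2.18 and single values of -2.86 to -0.28. In 30 of them all day 28 libraries lay below all day 7 libraries. Mki67, a marker of cycling cells, was at 7.67 to 15.8 CPM at day 28 (median 12.4), against 42.9 to 126 CPM at day 7 (median 69.6). Every day 28 library lay below every day 7 library (log2 change -2.63, SE 0.16, adjusted p = 5.03e-20). Foxm1, a transcription factor of the G2 and M phases, was at 2.72 to 4.94 CPM at day 28 (median 3.64), against 15.7 to 30.1 CPM at day 7 (median 23.1), again without overlap (log2 change -2.53, SE 0.13, adjusted p = 3.61e-23). No overlap was seen either for Cdk1, the kinase that drives entry into mitosis, Birc5, a passenger protein of the mitotic chromosome, and Tpx2, a spindle assembly factor, with log2 changes of -2.54, SE 0.14, of -2.64, SE 0.14 and of -2.68, SE 0.15. Set against Ptprc, the CD45 antigen of all leukocytes, Mki67 was still lower: their log2 ratio averaged -1.68 ± 0.33 at day 28 (SD, n = 11) and -0.64 ± 0.37 at day 7 (SD, n = 8), without overlap (difference -1.05, exact permutation adjusted p = 5.29e-05). With the contractile score in the fit, 32 of the 36 genes were lower and the median was -2.09.

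Because these genes moved together, the letters of their promoters are shown, from RefSeq (GRCm38.p6), which held windows for 30 of the 36 genes, counted from 250 bases before to 50 bases after the start of the gene. The CCAAT box and the CHR element, here TTTGAA, are known elements of promoters of mitotic genes. Searched on both strands, CCAAT was in 84.4% of the 32 windows of these genes, against 37.4% of all 32851 windows, and TTTGAA in 50% of them, against 17.9% of all windows. The 250 bases before the start are printed 5′ to 3′ on the gene's own strand for 3 of the genes described, with both motifs in capitals.
Cdk1, chr10:69352913-69353162, minus strand: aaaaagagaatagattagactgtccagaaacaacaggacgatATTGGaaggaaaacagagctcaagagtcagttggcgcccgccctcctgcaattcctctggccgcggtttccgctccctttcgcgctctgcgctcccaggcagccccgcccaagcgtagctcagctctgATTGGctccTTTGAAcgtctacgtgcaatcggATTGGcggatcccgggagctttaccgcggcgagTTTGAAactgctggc
Mki67, chr7:135716380-135716629, minus strand: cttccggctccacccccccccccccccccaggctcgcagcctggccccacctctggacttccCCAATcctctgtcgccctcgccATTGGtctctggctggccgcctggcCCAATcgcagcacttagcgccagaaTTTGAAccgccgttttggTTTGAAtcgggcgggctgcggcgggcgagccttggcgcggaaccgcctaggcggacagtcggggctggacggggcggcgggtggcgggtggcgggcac
Birc5, chr11:117848987-117849236, plus strand: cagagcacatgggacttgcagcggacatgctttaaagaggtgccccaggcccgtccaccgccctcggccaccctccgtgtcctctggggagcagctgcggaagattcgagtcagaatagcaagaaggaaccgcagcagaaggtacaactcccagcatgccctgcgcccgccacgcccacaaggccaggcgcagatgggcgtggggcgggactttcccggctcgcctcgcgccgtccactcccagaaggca
Cdk1 and Mki67 each held 3 matches to CCAAT (printed as ATTGG where it lies on the other strand) and 2 to TTTGAA, and Birc5 held none of either. Birc5 fell by a like amount as the other 2, and a match or its absence in this window says nothing of which factor acts there.

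**Figure D2:**
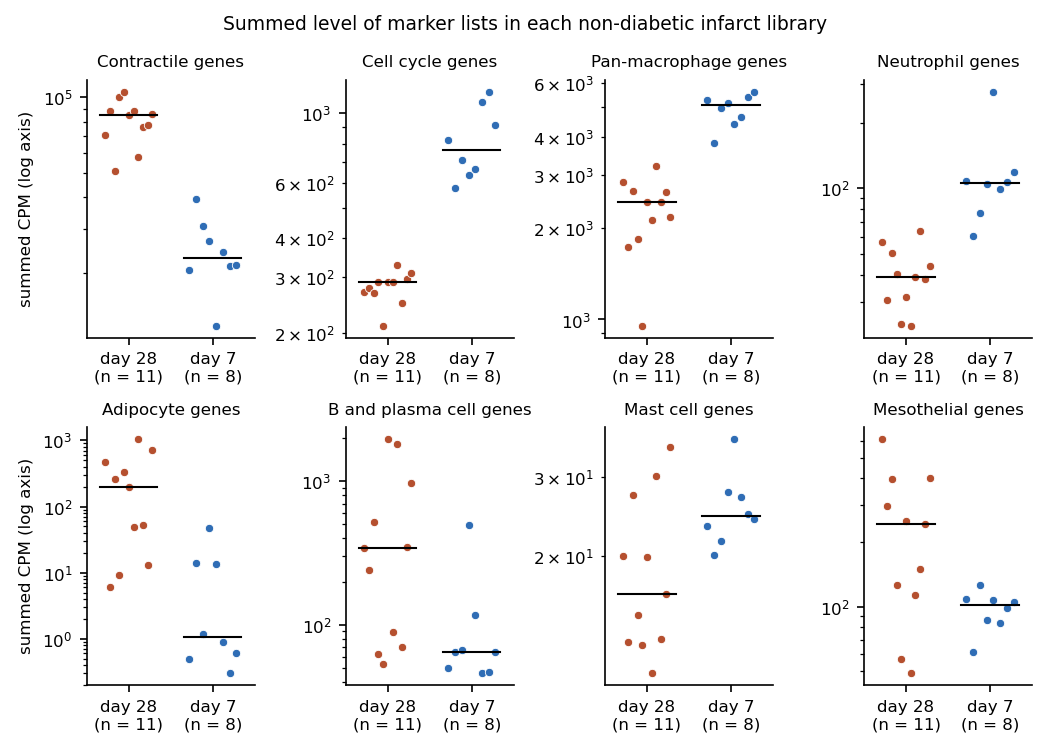
Summed CPM (log axis) of the genes of 8 marker lists in each library, with day 28 (n = 11) on the left and day 7 (n = 8) on the right and a bar at the median. The contractile, cell cycle and pan-macrophage sums separate the days without overlap, while the adipocyte, B and plasma cell and mesothelial sums vary widely among day 28 libraries.

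Muscle genes were higher at day 28 throughout. All 20 contractile genes rose (median 1.82), as did all 21 genes of calcium handling and ion channels (median 1.29). Myh6, the main adult myosin heavy chain of the mouse ventricle, was at 8170.3 to 22613 CPM at day 28 (median 17914), against 1060.1 to 7616 CPM at day 7 (median 3452). The groups did not overlap, and day 7 replicate 2 was the highest of its group (log2 change 2.20, SE 0.46, adjusted p = 3.4e-05). Myh7, the fetal and slow myosin heavy chain, was at 2299 to 4655 CPM at day 28 (median 3590), against 163 to 1311 CPM at day 7 (median 702), also apart (log2 change 2.28, SE 0.55, adjusted p = 0.000266). Tnni3, cardiac troponin I, changed by 2.50 (SE 0.35), and Myoz2, Ldb3 and Myom2, proteins of the Z disc and M band, by 1.99 (SE 0.26), by 1.83 (SE 0.25) and by 1.97 (SE 0.27). Jph2, which holds the junction of tubule and reticulum, rose by 1.54 (SE 0.19), and Casq2, the calcium store protein of the reticulum, by 1.86 (SE 0.23). The contractile list, which holds Myh6, defines the score, so its own values with the score in the fit are not a result (log2 change -0.72 for Myh6). Myh7 is not in that list, and its log2 change with the score was -0.88, with the call lost (edgeR adjusted p = 0.0876). Jph2 and Casq2 were then at 0.43 and 0.40. For the calcium and channel list, that fit gave 5 higher, 3 lower and a median of 0.09.

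Genes of cardiac stress rose beside the muscle genes, 9 of 10 with a median of 1.52, and 1 fell. Nppb, the B-type natriuretic peptide, was at 732 to 1434 CPM at day 28 (median 858), against 88.9 to 341 CPM at day 7 (median 234). No day 7 library reached the lowest day 28 library (log2 change 2.00, SE 0.24, adjusted p = 3.2e-10). Nppa, the atrial natriuretic peptide, was at 1104 to 2421 CPM at day 28 (median 1886), against 325 to 953 CPM at day 7 (median 554), and Ankrd1, a stretch-responsive repeat protein, at 2979 to 4819 CPM at day 28 (median 3506), against 336 to 1808 CPM at day 7 (median 973). Both were apart between the days, with log2 changes of 1.61, SE 0.22 and 1.90, SE 0.25. Rcan1, a target and inhibitor of calcineurin, changed by 1.43 (SE 0.20, adjusted p = 2.41e-08), and by 0.37 with the score in the fit (adjusted p = 0.0707). With the score, 3 of the 10 stress genes were higher and 1 was lower, with a median of 0.06. The 3 higher ones were Nppb, Nppa and Ankrd1, with changes of 0.70, 0.86 and 0.51. Set against Myh6 within each library, a measure that does not depend on the scaling, Nppa, Nppb, Ankrd1 and Myh7 did not pass the threshold. The log2 ratio of Nppa to Myh6 averaged -3.21 ± 0.72 at day 28 (SD, n = 11) and -2.51 ± 0.56 at day 7 (SD, n = 8) (difference -0.70, exact permutation adjusted p = 0.0551, below the day 7 mean in 9 of 11 day 28 libraries). The ratio of Nppb to Myh6 averaged -4.16 ± 0.48 at day 28 (SD, n = 11) and -3.87 ± 0.49 at day 7 (SD, n = 8), with an adjusted p of 0.254. Both ratios overlapped between the days. The ratio of Ankrd1 to Myh6 averaged -2.18 ± 0.41 at day 28 (SD, n = 11) and -1.86 ± 0.39 at day 7 (SD, n = 8), with an adjusted p of 0.137. The ratio of Myh7 to Myh6 averaged -2.33 ± 0.50 at day 28 (SD, n = 11) and -2.44 ± 0.59 at day 7 (SD, n = 8), with an adjusted p of 0.739 (exact two-sided permutation tests, adjusted over 12 pairs of genes). Leaving out day 28 replicate 3 or 8, or day 7 replicate 2 or 6, brought the Nppa ratio past the threshold, at differences of -0.84, -0.81, -0.77 and -0.80.

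Genes of oxidative metabolism rose with those of muscle, and most were also higher with the score in the fit. All 24 genes of fatty acid oxidation rose (median 1.80), and 18 were higher with the score in the fit (median 0.74). Likewise, all 16 genes of the citric acid cycle, all 23 nuclear genes of the respiratory chain and all 13 genes of the mitochondrial genome rose, with medians of 1.68, 1.67 and 2.18. All of these were also higher with the score in the fit, with medians of 0.69, 0.71 and 0.91. The genes of the mitochondrial genome rose unequally, by 1.75 to 3.43, with none between 2.18 and 2.89. Whether sequencing project has a part in the mitochondrial share or in this spread was not tested.

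Idh2, the mitochondrial NADP-dependent isocitrate dehydrogenase, was at 683 to 1690.2 CPM at day 28 (median 1138), against 142 to 335 CPM at day 7 (median 192). The days were apart (log2 change 2.43, SE 0.24, adjusted p = 9.35e-13), and the value with the score in the fit was 1.17. Hadh, a dehydrogenase of fatty acid oxidation, rose by 1.90 (SE 0.19, 1.07 with the score), Mdh2, mitochondrial malate dehydrogenase, by 1.75 (SE 0.17, 0.83 with the score), Sdhd, a membrane subunit of complex II, by 1.45 (SE 0.14, 0.77 with the score), and Cox5a, of complex IV, by 1.83 (SE 0.18, 0.89 with the score). mt-Nd1, a complex I subunit from the mitochondrial genome, was at 15432 to 32328 CPM at day 28 (median 22999), against 3863 to 10098 CPM at day 7 (median 5473) (log2 change 1.99, SE 0.22, adjusted p = 3.3e-11, and 0.91 with the score). Cpt1b, which carries fatty acids into muscle mitochondria, and Pdk4, which holds back glucose oxidation, rose by 1.82 (SE 0.29) and by 1.29 (SE 0.29). Both lost the call with the score in the fit, at 0.35 (adjusted p = 0.205) and 0.29 (adjusted p = 0.515). AAGGTCA, the letters bound by estrogen-related receptors, was in 0 of 17 promoter windows of the nuclear respiratory chain genes and 4.35% of the 23 windows of the fatty acid oxidation genes, against 4.72% of all windows. CATTCC and TATAAA were in 25% and 12.5% of the 24 windows of the contractile genes, against 14.7% and 13.6% of all windows.

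**Figure D3:**
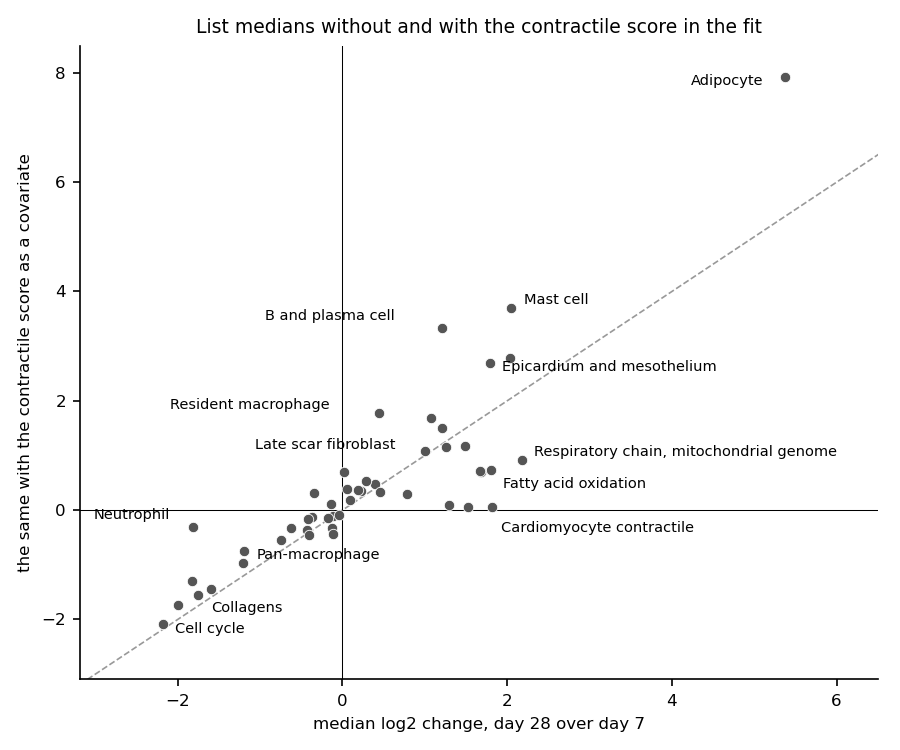
Median log2 change of each of the 48 lists (one point each), day 28 over day 7, from the fit as reported (x axis) and with the contractile score as a covariate (y axis); the dashed line marks equal values. Cell cycle and collagen lists lie near the line (-2.18 and -2.09, -1.75 and -1.55), the contractile list falls to 0.05, and the adipocyte, mast cell and B and plasma cell lists lie above the line.

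Glucose metabolism changed unevenly. Of 24 glycolysis genes 18 rose and 4 fell (median 0.79, and 0.30 with the score). Ldha, the lactate dehydrogenase subunit used by most tissues, rose by 0.68 (SE 0.075, 0.36 with the score), and Hk3, a hexokinase of myeloid cells, was at 3.33 to 8.51 CPM at day 28 (median 5.52), against 16.1 to 28 CPM at day 7 (median 24). For Hk3 no library of one day reached the other (log2 change -2.10, SE 0.14, adjusted p = 4.63e-18). Of 12 genes of the hypoxia response 6 rose and 0 fell, and Egln3, a prolyl hydroxylase that oxygen lack induces, rose by 1.62 (SE 0.20, 0.65 with the score). Of 12 genes of the pentose phosphate path and NRF2 targets 8 fell and 2 rose, and Slc7a11, the cystine carrier, was at 0.12 to 0.675 CPM at day 28 (median 0.36), against 0.509 to 2.64 CPM at day 7 (median 2.29) (log2 change -2.50, SE 0.33, adjusted p = 4.54e-09, and -1.57 with the score). Sterol and fatty acid synthesis genes split 5 higher and 4 lower out of 18, and 8 higher without day 7 replicate 6. Scd1, a fatty acid desaturase, rose by 2.04 (SE 0.57) and was highest, at 620.2 CPM, in day 28 replicate 8, the library with the highest adipocyte sum.

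Most collagen genes fell, and the listed ones did so with the score in the fit as well. All 18 collagen genes of the list were lower at day 28, with a median of -1.75, and 15 were without overlap between days. The list leaves out other chains: of the 25 collagen chains tested outside it, 13 fell and 7 rose, so that 31 of all 43 fell. Col4a3 and Col4a4, chains of type IV collagen outside the list and picked after their values were seen, rose without overlap (log2 change 2.04, SE 0.20, and 1.61, SE 0.16, edgeR adjusted p = 8.85e-13 and 1.69e-12). With the score all 18 of the list stayed lower (median -1.55). Their summed level was 10939.8 to 14058 CPM at day 28, against 49390.5 to 65602 CPM at day 7. Col1a1, the major chain of type I collagen, was at 562 to 1210.2 CPM at day 28 (median 967), against 9321 to 14254 CPM at day 7 (median 12431). Its day 28 maximum lay far below its day 7 minimum (log2 change -3.71, SE 0.16, adjusted p = 7.74e-26). Col1a2, the partner chain, fell by 2.86 (SE 0.17), Col5a1, which nucleates fibrils, fell by 2.88 (SE 0.14), and Col11a1, a minor fibrillar chain of cartilage, fell by 4.93 (SE 0.26). Col3a1, the chain of type III collagen, was at 3041 to 4778 CPM at day 28 (median 3545), against 12382 to 17558 CPM at day 7 (median 15626) (log2 change -2.00, SE 0.13, adjusted p = 6.05e-19).

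The chains did not fall by the same factor. Within a library, the log2 ratio of Col3a1 to Col1a1 averaged 2.04 ± 0.22 at day 28 (SD, n = 11) and 0.33 ± 0.28 at day 7 (SD, n = 8). It was higher in all 11 day 28 libraries than in any day 7 library (difference 1.71, exact permutation adjusted p = 5.29e-05). The raw p of 2.65e-05 is the smallest that 11 against 8 libraries can give, so the adjusted p is also the smallest within reach. Among 27 other matrix and crosslinking genes 22 fell and 4 rose (median -1.21). Lox, the copper enzyme that crosslinks collagen and elastin, was at 129 to 269 CPM at day 28 (median 189), against 980.4 to 2293 CPM at day 7 (median 1402) (log2 change -2.88, SE 0.17, adjusted p = 8.87e-21), apart between the days. Eln, elastin, was at 477 to 1433 CPM at day 28 (median 977), against 897 to 3752 CPM at day 7 (median 2046), where the groups overlapped (log2 change -1.21, SE 0.24, adjusted p = 1.95e-05). Tnc, tenascin C of provisional matrix, fell by 4.05 (SE 0.34), and Cemip, which breaks down hyaluronan, fell by 5.67 (SE 0.34). Among the 4 that rose were Dcn, decorin, a small proteoglycan that binds collagen fibrils, and Fbln1, a basement membrane and elastic fibre protein. Dcn was at 1587 to 3347 CPM at day 28 (median 2701), against 856 to 1451 CPM at day 7 (median 998) and Fbln1 at 529 to 1277 CPM at day 28 (median 858), against 130.2 to 396 CPM at day 7 (median 191), both higher in every day 28 library than in any day 7 library, with log2 changes of 1.30, SE 0.12 and 1.99, SE 0.20.

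**Figure D4:**
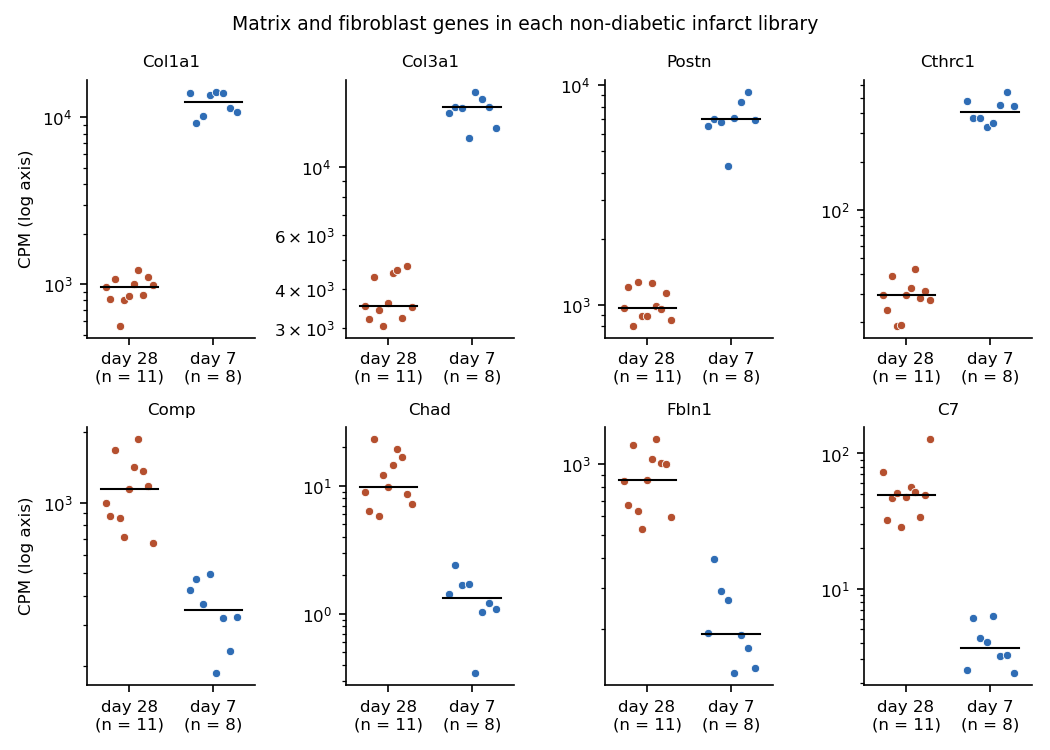
CPM (log axis) of 8 matrix and fibroblast genes in each library, with day 28 (n = 11) on the left and day 7 (n = 8) on the right and a bar at the median. Col1a1, Col3a1, Postn and Cthrc1 are lower, and Comp, Chad, Fbln1 and C7 are higher, in every day 28 library than in any day 7 library.

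Fibroblast genes split by the state they mark. Of 16 myofibroblast genes 14 fell and none rose (median -1.99, and -1.73 with the score). Postn, periostin of activated fibroblasts, was at 801 to 1265 CPM at day 28 (median 965), against 4295 to 9347 CPM at day 7 (median 6991), and Cthrc1, a secreted protein of collagen-making fibroblasts, at 18.9 to 43.1 CPM at day 28 (median 29.4), against 327 to 546 CPM at day 7 (median 411). Neither overlapped between days (log2 change -2.79, SE 0.15, adjusted p = 3.28e-22 for Postn, log2 change -3.84, SE 0.22, adjusted p = 8.14e-21 for Cthrc1). Ccn4, a matricellular target of Wnt signalling, fell by 3.64 (SE 0.21). Acta2, smooth muscle actin, which marks myofibroblasts and vessel walls alike, was at 199 to 492 CPM at day 28 (median 323), against 493 to 1457 CPM at day 7 (median 1038) (log2 change -1.68, SE 0.17, adjusted p = 1.81e-12, and -1.09 with the score). Set against Myh11, the myosin of vessel smooth muscle, the log2 ratio averaged 1.74 ± 0.26 at day 28 (SD, n = 11) and 3.67 ± 0.56 at day 7 (SD, n = 8), with no overlap (difference -1.93, exact permutation adjusted p = 5.29e-05). Postn fell less than Col1a1: their log2 ratio averaged 0.14 ± 0.44 at day 28 (SD, n = 11) and -0.80 ± 0.44 at day 7 (SD, n = 8) (difference 0.94, exact permutation adjusted p = 0.000227, higher in 11 of 11 day 28 libraries than the day 7 mean).

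Genes that mark the matrix-organising fibroblasts of late scar moved the other way. Of 16 genes 10 rose and none fell (median 1.26, and 1.15 with the score, when 1 was lower). Comp, a cartilage and tendon protein that helps assemble collagen fibrils, was at 672 to 1872 CPM at day 28 (median 1148), against 187 to 494 CPM at day 7 (median 347). The days were apart (log2 change 1.72, SE 0.24, adjusted p = 1.91e-08). Chad, chondroadherin, a leucine-rich collagen-binding protein, was at 5.78 to 23.2 CPM at day 28 (median 9.76), against 0.344 to 2.41 CPM at day 7 (median 1.33), and Cilp2, a cartilage intermediate layer protein, at 6.89 to 19 CPM at day 28 (median 12.4), against 0.339 to 4.14 CPM at day 7 (median 1.02). Both were apart, with log2 changes of 3.16, SE 0.33 and 3.02, SE 0.35. Prelp and Omd, proteoglycans of the same leucine-rich family, rose by 1.68 (SE 0.22) and by 1.44 (SE 0.19). Against Col1a1 in the same library, Comp showed the widest shift of the 12 pairs: the log2 ratio averaged 0.27 ± 0.40 at day 28 (SD, n = 11) and -5.16 ± 0.60 at day 7 (SD, n = 8) (difference 5.43, exact permutation adjusted p = 5.29e-05).

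The rise of these genes was not a rise of all cartilage genes. Of 13 tested genes of cartilage and bone 9 fell and 1 rose, or 2 without day 7 replicate 3 (median -1.60). Acan, aggrecan, the large proteoglycan of cartilage, was at 3.71 to 12.4 CPM at day 28 (median 5.14), against 36.4 to 84.6 CPM at day 7 (median 67.6) (log2 change -3.48, SE 0.34, adjusted p = 5.96e-13), and Runx2, the transcription factor of bone formation, fell by 1.60 (SE 0.14). The gene that rose was Alpl, tissue-nonspecific alkaline phosphatase, by 1.43 (SE 0.18, 0.45 with the score). Among 13 genes of resting fibroblasts 10 rose and 2 fell, or 1 fell when day 28 replicate 1, 2 or 5 or day 7 replicate 5 or 8 was left out. Single values ran from -1.04 to 3.77 (median 1.00), and those described here, Gsn, Pi16 and C7, are all among the genes that rose. Gsn, gelsolin, which severs actin filaments, was at 2968 to 6372 CPM at day 28 (median 4154), against 399 to 684 CPM at day 7 (median 503), without overlap (log2 change 3.06, SE 0.16, adjusted p = 1.67e-22). Pi16, a marker of adventitial fibroblasts, rose by 2.23 (SE 0.17). C7, a late complement component made by fibroblasts, was at 28.7 to 128 CPM at day 28 (median 49.1), against 2.37 to 6.32 CPM at day 7 (median 3.65), and the highest value was in day 28 replicate 11 (log2 change 3.77, SE 0.30, adjusted p = 4.99e-16).

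Enzymes that cut the matrix mostly fell. Of 25 proteases and inhibitors 17 fell and 2 rose (median -0.75), and 4 rose without day 7 replicates 4 and 5. Adamts12, a metalloprotease with thrombospondin repeats, was at 6.53 to 10.6 CPM at day 28 (median 8.6), against 64.3 to 147 CPM at day 7 (median 125) (log2 change -3.73, SE 0.14, adjusted p = 3.18e-28). Mmp14, the membrane collagenase, fell by 2.44 (SE 0.13), and Adamts16 fell by 4.61 (SE 0.40). The genes that rose in the fit of all libraries were Mmp3, stromelysin 1, and Timp4, the heart-enriched inhibitor of metalloproteases. Mmp3 was at 48.1 to 174 CPM at day 28 (median 73), against 4.33 to 31.2 CPM at day 7 (median 5.09), and day 7 replicate 5 stood at 31.2 CPM while the other day 7 libraries were at 4.33 to 10.5 CPM (log2 change 3.26, SE 0.33, adjusted p = 2.26e-12). Without that library the change was 3.89. Timp4 rose by 1.87 (SE 0.56), a call lost with the score in the fit (adjusted p = 0.119). Without day 7 replicates 4 and 5 the change of Timp4 was 2.75.

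Of 23 genes of TGF-beta and BMP signalling 9 fell and 7 rose, shares near those of all genes. Tgfb1, the ligand that activates fibroblasts, was at 25.7 to 38 CPM at day 28 (median 33.1), against 53.8 to 99.8 CPM at day 7 (median 72), with no overlap (log2 change -1.15, SE 0.089, adjusted p = 3.44e-16). Inhba, the activin A subunit, fell by 2.43 (SE 0.25), and Bmp6, a bone morphogenetic protein, rose by 1.17 (SE 0.20). Of 18 Wnt genes 9 rose and 4 fell. Secreted modulators of Wnt went both ways: Wif1 rose by 2.67 (SE 0.36, 1.51 with the score), while Sfrp1 fell by 1.46 (SE 0.14) and Dkk2 fell by 2.79 (SE 0.32). The 10 largest rises included Myoc, myocilin, a secreted olfactomedin protein, at 37.2 to 155 CPM at day 28 (median 83.7), against 0.626 to 4.19 CPM at day 7 (median 1.46). No day 7 library came near the day 28 range (log2 change 5.78, SE 0.36, adjusted p = 1.82e-19). Cytl1, a small secreted protein found in cartilage, rose by 4.78 (SE 0.32), Edn3, endothelin 3, by 4.25 (SE 0.49, 1.22 with the score), and Vit, vitrin, a matrix protein, by 3.72 (SE 0.37). C1qtnf3, a secreted C1q-like protein, was among the 10 largest falls (-4.24, SE 0.46).

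**Figure D5:**
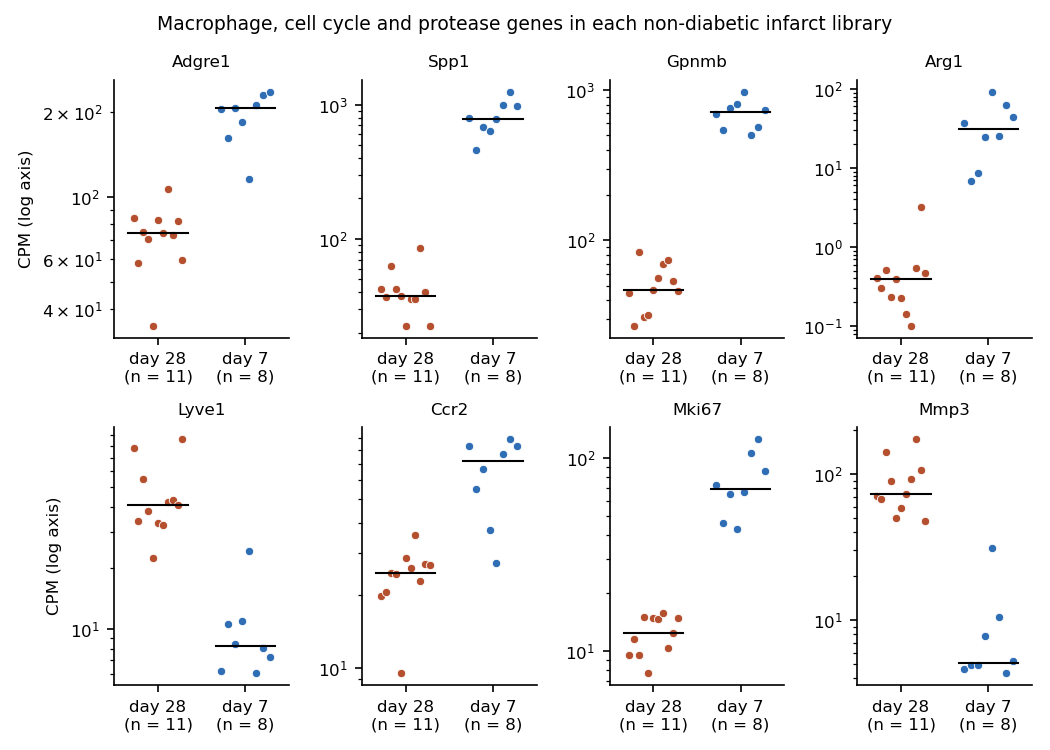
CPM (log axis) of 8 macrophage, cell cycle and protease genes in each library, with day 28 (n = 11) on the left and day 7 (n = 8) on the right and a bar at the median. Adgre1, Spp1, Gpnmb, Arg1 and Mki67 are lower in every day 28 library than in any day 7 library, Mmp3 is higher in every one, and Lyve1 and Ccr2 overlap.

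Macrophage genes fell as a group. All 15 pan-macrophage genes were lower at day 28 (median -1.19), and 12 of them with the score in the fit (median -0.75). Adgre1, the F4/80 antigen, was at 34.8 to 107 CPM at day 28 (median 74.4), against 116 to 236 CPM at day 7 (median 206). Cd68, a lysosomal glycoprotein of macrophages, was at 21.8 to 63 CPM at day 28 (median 48.8), against 159.7 to 253 CPM at day 7 (median 230). Both were apart (log2 change -1.41, SE 0.14, adjusted p = 3.67e-12 for Adgre1, log2 change -2.24, SE 0.14, adjusted p = 1.73e-19 for Cd68). Mertk, the receptor that takes up dying cells, fell by 1.91 (SE 0.18). C3ar1, a complement receptor of myeloid cells, fell by 2.48 (SE 0.18), and Ctss, a lysosomal protease, fell by 2.52 (SE 0.15).

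Genes of lipid-laden and reparative macrophages fell as well. Of 18 genes 16 fell and 2 rose (median -1.83, and -1.30 with the score). Spp1, osteopontin, was at 22.4 to 86 CPM at day 28 (median 37.6), against 459.6 to 1249.7 CPM at day 7 (median 787), and Gpnmb, a glycoprotein of lipid-loaded phagocytes, at 26.9 to 83.6 CPM at day 28 (median 46.9), against 499.8 to 976 CPM at day 7 (median 719). The lowest day 7 library was above the highest day 28 library in each (log2 change -4.28, SE 0.23, adjusted p = 3.54e-22 for Spp1, log2 change -3.77, SE 0.23, adjusted p = 6.22e-20 for Gpnmb). Arg1, arginase 1, had the largest fall of any gene named, at 0.1 to 3.24 CPM at day 28 (median 0.396), against 6.74 to 92.1 CPM at day 7 (median 30.9) (log2 change -5.98, SE 0.90, adjusted p = 8.5e-08). Its highest values were 92.1 CPM in day 7 replicate 5 and 3.24 CPM in day 28 replicate 10, and the change was -5.64 without that day 7 library and -3.92 with the score. Hmox1, haem oxygenase 1, fell by 3.19 (SE 0.23), and Fabp5, a fatty acid carrier, fell by 1.85 (SE 0.10). Within a library the log2 ratio of Spp1 to Adgre1 averaged -0.84 ± 0.67 at day 28 (SD, n = 11) and 2.05 ± 0.41 at day 7 (SD, n = 8), with no overlap (difference -2.90, exact permutation adjusted p = 5.29e-05).

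Genes of resident macrophages went both ways, where all pan-macrophage genes fell. Of 15 genes 5 rose, 3 fell and 7 were not called (median 0.44), and 10 were higher with the score in the fit. The share that rose was near the 31.4% of all genes. Without day 7 replicates 4 and 5, 7 rose and 1 fell (median 0.82). Lyve1, a hyaluronan receptor of perivascular macrophages and lymphatic vessels, was at 22.4 to 86.4 CPM at day 28 (median 40.8), against 6.04 to 24.1 CPM at day 7 (median 8.24). The highest day 7 value was in replicate 5, and it alone reached the day 28 range (log2 change 2.17, SE 0.26, adjusted p = 3.25e-10). Without it the change of Lyve1 was 2.50. Mgl2, a galactose lectin, was at 12.2 to 21.8 CPM at day 28 (median 16.2), against 0.191 to 3.16 CPM at day 7 (median 2.43) (log2 change 2.97, SE 0.27, adjusted p = 8.46e-14), and Timd4, a phosphatidylserine receptor of long-lived macrophages, at 0.383 to 4.12 CPM at day 28 (median 1.64), against 0.0382 to 0.509 CPM at day 7 (median 0.147) (log2 change 3.28, SE 0.58, adjusted p = 2.23e-06). Igf1, a growth factor that these cells and fibroblasts make, fell by 1.40 (SE 0.12). Mrc1, the mannose receptor, was at 40.7 to 112 CPM at day 28 (median 98.9), against 80.5 to 223 CPM at day 7 (median 123), with overlap (log2 change -0.46, SE 0.17, adjusted p = 0.0156). Without day 7 replicate 5 its log2 change was -0.30 (adjusted p = 0.115), and the call was also lost with the score, without the filter on low counts, with limma-voom, with a block on replicate number and with libraries summed by the first number of their names. The log2 ratio of Lyve1 to Adgre1 averaged -0.72 ± 0.56 at day 28 (SD, n = 11) and -4.36 ± 0.96 at day 7 (SD, n = 8) and did not overlap (difference 3.64, exact permutation adjusted p = 5.29e-05). Lymphatic genes rose too, and the part of lymphatic vessels in Lyve1 was not tested.

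Without the score in the fit, most monocyte and neutrophil genes that changed were lower. Of 13 monocyte genes 6 fell and 1 rose (median -0.34). The monocyte direction did not hold with the score, when 6 were higher and 5 lower (median 0.31). Ccr2, the chemokine receptor of recruited monocytes, was at 9.47 to 35.4 CPM at day 28 (median 24.7), against 27.2 to 89 CPM at day 7 (median 71.8) (log2 change -1.43, SE 0.20, adjusted p = 1.02e-08). Day 7 replicate 5 was the lowest of its group and lay within the day 28 range. The log2 ratio of Ccr2 to Adgre1 averaged -1.61 ± 0.23 at day 28 (SD, n = 11) and -1.65 ± 0.36 at day 7 (SD, n = 8), a difference of 0.04 (exact permutation adjusted p = 0.739), and leaving out 1 library moved it between -0.05 and 0.10. Chil3, a chitinase-like protein of monocytes, fell by 4.33 (SE 0.53, -3.38 without day 7 replicate 5, its highest library, and -2.52 with the score), and Plac8 fell by 2.29 (SE 0.22). Of 15 neutrophil genes 11 fell (median -1.81), and 8 without day 7 replicates 4 and 5. With the score in the fit 3 were lower and 1 higher (median -0.31), where 23.5% of all genes were lower. Csf3r, the receptor for G-CSF, was at 5.29 to 13.3 CPM at day 28 (median 9.78), against 24.7 to 41.8 CPM at day 7 (median 34), apart between days (log2 change -1.81, SE 0.14, adjusted p = 4.34e-16). Mmp8, neutrophil collagenase, fell by 2.55 (SE 0.30). S100a8, a calgranulin subunit, was at 0.938 to 4.33 CPM at day 28 (median 2.06), against 1.21 to 17.6 CPM at day 7 (median 3.52), and the day 7 maximum was again replicate 5 (log2 change -1.02, SE 0.44, adjusted p = 0.0376). Without that library the change was -0.37 (adjusted p = 0.463).

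Of 26 cytokines and chemokines 13 fell and 2 rose (median -0.62). With the score in the fit 6 were lower and 2 higher (median -0.32), a share lower near the 23.5% of all genes. Ccl3, a chemokine of activated macrophages, was at 0.158 to 0.708 CPM at day 28 (median 0.301), against 0.849 to 3.57 CPM at day 7 (median 1.76) (log2 change -2.27, SE 0.29, adjusted p = 1.44e-09), and Cxcl14, a chemokine of stromal cells, rose by 1.13 (SE 0.22). Il1b, interleukin 1 beta, was at 2.03 to 10.2 CPM at day 28 (median 3.11), against 0.649 to 7.08 CPM at day 7 (median 4.76), with a log2 change of 0.01, SE 0.43 (adjusted p = 0.99). Of 25 interferon-stimulated genes 15 fell and 1 rose (median -0.41). The antiviral gene Oas3 fell by 1.66 (SE 0.20), the antiviral gene Mx1 fell by 1.06 (SE 0.18), and Irf7, an interferon regulatory factor, fell by 0.52 (SE 0.15). Complement went the other way: 12 of 16 genes rose and 3 fell (median 1.08, and 1.69 with the score). C3, the central component, was at 637 to 2059 CPM at day 28 (median 1568), against 353 to 666 CPM at day 7 (median 418) (log2 change 1.73, SE 0.21, adjusted p = 2.38e-10). Among the 10 largest falls were also Cd300lf, a receptor of myeloid cells (-4.09, SE 0.27), and the protease inhibitors Serpinb1a (-3.89, SE 0.22) and Serpinb9b (-4.04, SE 0.26).

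Without the score in the fit, lymphoid lists changed little or unevenly. With it, 5 of 20 T cell genes were higher and 1 lower. Of 20 T cell genes 2 rose and none fell, and Ctla4, an inhibitory receptor of activated and regulatory T cells, was at 0.765 to 2.17 CPM at day 28 (median 1.45), against 0.109 to 0.849 CPM at day 7 (median 0.443) (log2 change 1.72, SE 0.36, adjusted p = 4.78e-05, and 2.59 with the score). Of 12 NK cell genes 1 fell, and 1 to 4 when 1 library was left out, most without day 28 replicate 8, without which 2 T cell genes were lower as well. Of 10 class II genes 1 fell and none rose, and the 11 dendritic cell genes split 4 higher and 5 lower. Of 12 B and plasma cell genes 5 rose, or 3 when day 28 replicate 6 or 8 or any day 7 library but 4 and 5 was left out. With the score all 12 of these genes were higher (median 3.33, against 1.21 without it). Their level rested on some libraries. Ighm, the heavy chain of IgM, was at 31.6 to 1647 CPM at day 28 (median 276), against 26.4 to 401 CPM at day 7 (median 40.2), with 1647 CPM in day 28 replicate 6, 1568 in replicate 8 and 818 in replicate 11. At day 7 replicate 4 held 401 CPM and the other libraries 26.4 to 89.2. The call (log2 change 2.48, SE 1.03, adjusted p = 0.031) was lost when any of 8 libraries was left out (largest adjusted p 0.0673, without day 28 replicate 6). Without day 7 replicates 4 and 5 the change was 3.78, and with the score it was 5.06. The call was lost with libraries summed by first number (2.41, adjusted p = 0.0769). Jchain, which joins IgM and IgA, was at 2.1 to 219 CPM at day 28 (median 25), against 0.232 to 26.8 CPM at day 7 (median 1.78) (log2 change 3.74, SE 1.24, adjusted p = 0.00745), and Mzb1, of plasma cells, rose by 3.31 (SE 0.88). With the score the values were 6.33 for Jchain and 6.24 for Mzb1. Of 6 tested mast cell genes 5 rose and Kit, the stem cell factor receptor, fell (-1.22, SE 0.10). Cma1, mast cell chymase, was at 0.306 to 5.34 CPM at day 28 (median 2.38), against 0.26 to 0.786 CPM at day 7 (median 0.47) (log2 change 2.30, SE 0.62, adjusted p = 0.00106), and Cpa3, carboxypeptidase A3, rose by 2.28 (SE 0.56). With the score the values were 4.05 for Cma1 and 3.77 for Cpa3. The summed level of the list was nevertheless 11 to 34.9 CPM at day 28 (median 16.5), against 20.1 to 36.4 CPM at day 7 (median 24.5), a sum that includes Kit.

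Vessel genes rose modestly. Of 18 endothelial genes 14 rose and 1 fell (median 0.46, and 0.34 with the score). Pecam1, CD31, was at 223 to 290 CPM at day 28 (median 249.6), against 190.3 to 280 CPM at day 7 (median 209) (log2 change 0.21, SE 0.071, adjusted p = 0.00897). This call was lost with libraries summed by the first number of their names (0.19, adjusted p = 0.0892). Flt1 and Kdr, receptors of VEGF, were at 105 to 191 CPM at day 28 (median 148), against 68.7 to 99.3 CPM at day 7 (median 82.6) for Flt1 and 108 to 243 CPM at day 28 (median 205), against 71.7 to 136 CPM at day 7 (median 89.3) for Kdr. Flt1 was apart between days (0.82, SE 0.10, and 0.40 with the score), while Kdr overlapped (0.99, SE 0.17) and lost its call with the score in the fit (adjusted p = 0.273). Of 12 genes of vessel sprouting 5 rose and 2 fell. Vegfa, the main VEGF ligand, was at 269 to 539 CPM at day 28 (median 427), against 44.1 to 148 CPM at day 7 (median 120.5) (log2 change 1.94, SE 0.21, adjusted p = 1.15e-11), Vegfb rose by 1.62 (SE 0.20), and Pgf, placental growth factor, fell by 1.20 (SE 0.15). With the score in the fit the values were 0.87 for Vegfa, 0.52 for Vegfb and -0.72 for Pgf. Without day 7 replicate 5 the value for Pgf was -0.93. Of 6 lymphatic genes 5 rose, and Ccl21a, a chemokine of lymphatic vessels with near-identical gene copies, was at 76.5 to 237 CPM at day 28 (median 167), against 3.32 to 35.1 CPM at day 7 (median 10.7) (log2 change 3.42, SE 0.33, adjusted p = 5.3e-13). Mural cell genes split 5 higher and 6 lower out of 12. Cnn1, calponin of smooth muscle, fell by 2.49 (SE 0.22), and Kcnj8, a potassium channel of pericytes, rose by 0.76 (SE 0.17), a call lost with the score in the fit (0.23, adjusted p = 0.343). Of 10 Schwann cell genes 1 rose and 2 fell (1 to 2 in each direction when 1 library was left out), and the one that rose was Erbb3, a neuregulin receptor (1.44, SE 0.19, and 0.44 with the score).

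Markers of fat, of the heart surface and of skeletal muscle rose at day 28 and varied widely between day 28 libraries. The 8 adipocyte genes all rose (median 5.37, and 7.11 without day 7 replicates 4 and 5). Their summed level was 6.11 to 1053 CPM at day 28 (median 195), against 0.325 to 46.8 CPM at day 7 (median 1.06). Cfd, adipsin, was at 0.981 to 394 CPM at day 28 (median 51.8), against 0 to 16.8 CPM at day 7 (median 0.124), and Car3, carbonic anhydrase III of fat and muscle, at 3.7 to 382 CPM at day 28 (median 67.7), against 0.195 to 17.7 CPM at day 7 (median 0.78). Day 28 replicates 2, 4 and 10 were within the day 7 range for both genes, and replicate 8 was the highest (log2 change 5.05, SE 1.66, adjusted p = 0.00669 for Cfd, log2 change 5.34, SE 1.49, adjusted p = 0.00157 for Car3). With the score the value for Cfd was 7.75. Of 10 genes of the epicardium and mesothelium, the lining of the heart surface, 7 rose. Upk3b, a uroplakin, was at 6.21 to 192 CPM at day 28 (median 65.2), against 2.83 to 16.3 CPM at day 7 (median 5.43) (log2 change 3.39, SE 0.53, adjusted p = 1.59e-07), and Msln, mesothelin, rose by 2.26 (SE 0.51), both highest in day 28 replicate 1.

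Genes of skeletal muscle were among the 10 largest rises. Myh1, a fast skeletal myosin heavy chain, was at 0.123 to 492 CPM at day 28 (median 14.6), against 0.0866 to 25.1 CPM at day 7 (median 0.225), with 492 CPM in day 28 replicate 5, 189 in replicate 11 and 133 in replicate 1, and no more than 0.477 CPM in replicates 3, 4 and 10. Atp2a1, the calcium pump of fast skeletal muscle, was at 0.307 to 356 CPM at day 28 (median 8.23), against 0.195 to 13.8 CPM at day 7 (median 0.565) and was highest in the same library. Both calls (log2 change 4.49, SE 1.60, adjusted p = 0.0123 for Myh1, log2 change 4.43, SE 1.45, adjusted p = 0.00664 for Atp2a1) were lost with limma-voom and its library weights, at adjusted p = 0.325 for Myh1 and 0.29 for Atp2a1. They were also lost with the score in the fit (adjusted p = 0.0526 and 0.059). Without day 28 replicate 5 the changes were 3.56 for Myh1 and 3.40 for Atp2a1, and without day 7 replicate 2 they were 7.41 and 5.97. Day 28 replicate 5 also had the highest contractile sum, 105042 CPM, and the lowest pan-macrophage sum of its group, 951 CPM. Of 7 erythroid genes 5 rose. Hbb-bs, an adult beta globin with a near-identical copy, was at 111 to 793 CPM at day 28 (median 265), against 31.6 to 153 CPM at day 7 (median 57.9) (log2 change 2.14, SE 0.37, adjusted p = 1.33e-06). The part of attached fat, surface lining, chest muscle or blood in the changes of other genes was not tested.

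The lists of the unfolded protein response, immediate early genes and the clock had medians of 0.19, -0.04 and -0.17, against -0.03 for all genes. Their members moved in both directions, where 31.4% of all genes were higher and 33.7% lower. Of 19 genes of the unfolded protein response 7 rose and 3 fell, with Herpud1, which serves the degradation of misfolded proteins of the reticulum, higher by 0.81 (SE 0.11). Of 18 immediate early genes 4 rose and 1 fell (2 fell without day 7 replicate 5 or day 28 replicate 3 or 8), with Klf4 higher by 0.86 (SE 0.12). Of 16 clock genes 5 rose and 4 fell. Of the period genes, Per2 fell by 1.31 (SE 0.25) and Per3 fell by 1.39 (SE 0.23), and Arntl, which peaks opposite to them, rose by 0.81 (SE 0.18). The hour at which tissue was taken is not in the labels. Of 3 tested atrial genes 2 rose, or 1 when any of 12 libraries was left out (day 28 replicates 1, 3, 4, 5, 6, 8 and 11 and day 7 replicates 1, 4, 5, 6 and 8), and of 5 sex-linked genes 2 fell.

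The same change was set against that of the diabetic infarcts, by a test of the difference in the fit of all 55 libraries. The day change in type 1 diabetic tissue was higher than in non-diabetic tissue for 1425 genes (6.98%) and lower for 1123 (5.5%). For type 2 diabetic tissue the counts were 221 (1.08%) and 87 (0.426%). Both tests use the same 19 non-diabetic libraries. Without 1 type 1 library at day 7 and 1 type 2 library at day 28 that stood apart, the counts were 1578 (7.69%) and 1437 (7%) for type 1, and 222 (1.08%) and 105 (0.511%) for type 2.

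For part of the collagen genes the fall was deeper in non-diabetic tissue. The day change of 9 of 18 listed collagen genes was higher in type 1 and of 5 in type 2 diabetic tissue, and of none lower. Col1a1 changed by -2.70 in type 1 and by -2.88 in type 2 diabetic tissue, against -3.71 in non-diabetic tissue (differences 1.01 and 0.83, edgeR adjusted p = 0.00126 and 0.0363). Of 16 late scar genes the day change was higher in type 1 tissue for 13 and in type 2 tissue for 3. Comp changed by 3.75 in type 1 tissue, against 1.72 in non-diabetic tissue (difference 2.03), and Eln by 1.31 in type 1 tissue, against -1.21 in non-diabetic tissue (difference 2.52). Resident macrophage genes mostly showed the reverse. The day change of 9 of 15 was lower in type 1 tissue, among them Timd4 (0.99 in type 1, against 3.28 in non-diabetic tissue, edgeR adjusted p of the difference 0.0349), and that of 1 was higher. It was also lower in type 1 tissue for 7 of 15 neutrophil genes, 10 of 18 genes of sterol and fatty acid synthesis and 5 of 7 erythroid genes. It was lower for 7 of the 36 cell cycle genes, and for the lists of citric acid cycle and respiratory chain genes no member passed in either group.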

How the data were processed

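Raw read counts per gene were used as the authors deposited them, in 1 table for day 7 and 1 for day 28. RNA came from infarct tissue and libraries from a stranded mRNA kit, per the labels' protocols. The submitters' processing notes name mm39 and DESeq2. The aligner is not given in the sources used here, and neither are the read counter, the annotation and the strand setting. The tables were joined on gene identifiers (56941 genes at day 7, 57186 at day 28, 56867 in both). All 55 libraries, as 6 groups of diabetes state and day, were fitted together with edgeR 4.0.16 (R 4.3.3), TMM scaling, filterByExpr (minimum count 10, total 15) and the quasi-likelihood test of day 28 minus day 7 in non-diabetic tissue, with Benjamini-Hochberg adjustment over 20421 genes. CPM are scaled by TMM, with no prior count. Log2 ratios of 12 pairs of genes, on log2 CPM with a prior count of 2, were compared by exact two-sided permutation tests over all 75582 regroupings of the libraries. Library sizes sum the 56867 shared genes, of which 51880 matched a symbol and held 99.52% of counts. Of deposited counts from 1 to 49, 75.2% at day 28 and 76.4% at day 7 were even, a pattern for which the sources used here give no reason. Depth was 57979612 to 84380994 counts per library at day 28, against 10756242 to 46812053 at day 7. Precision depends on the spread between libraries as well as on depth.

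Genes were named by this rule. In either direction, the 10 called genes that moved most were taken, provided they had a proper name and averaged 1 or more in log2 CPM. From each of 48 lists came the called members with the lowest p, 4 at most on the side with more calls and 2 at most on the other side. A short set of fixed genes was added whatever its result. The gene groups, lists and pairs were chosen with earlier results of these data known, so none of them is independent evidence. No 2 libraries of a group agreed within counting noise: the lowest chi-square per gene was 33.8 among 55 pairs at day 28 and 22.9 among 28 pairs at day 7. The contractile score is the mean log2 CPM of 20 contractile genes. Alternatives were DESeq2 1.42.0, limma 3.58.1 (voom with library weights), RLE scaling, scaling without muscle and mitochondrial genes, no filter on low counts, the score as a covariate, the non-diabetic libraries alone, a block on replicate number, summing libraries whose names share a first number, and leaving out each library. Many libraries share a first number, so the summing left 4 sums at day 28 and 6 at day 7. Leaving out day 7 replicates 4 and 5 together was chosen after seeing the data. The fit was tested on simulated data first. Some results are not reported here.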

Additional observations from a re-analysis of the deposited data

Results flagged for a closer look

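At day 7, some libraries lay far from the other 7 of their group in 16 of 144 values examined. The cutoff marks about 1 in 20 independent values by chance. These values come from the same 8 libraries and are not independent, so 16 of 144 cannot be set against that rate. For Edn3, replicate 5 held 0 CPM, so its log2 value is set by the prior count. Day 7 replicate 5 was far below the median log2 CPM of the others in Nppb (6.47, against 7.95), Rcan1 (5.87, against 7.52), Chad (-1.40, against 0.56), Alpl (3.36, against 4.53), Edn3 (-4.78, against -0.95), Mgl2 (-2.14, against 1.39), Il1b (-0.54, against 2.32) and Vegfa (5.46, against 6.93). It was far above it in Mmp3 (4.96, against 2.31), Lyve1 (4.59, against 3.02), Cxcl14 (4.37, against 3.11) and Pgf (5.40, against 4.05), and its log2 ratio of Lyve1 to Adgre1 was -2.26, against -4.83. Day 7 replicate 4 was low in Postn (12.07, against 12.78) and high in Ighm (8.65, against 5.28), and replicate 2 was low in Hk3 (4.01, against 4.63). The cutoff was set for a group of 8, so the day 28 group, with 11 libraries, was not examined in this way. Single high values occurred there too, such as Hbb-bs at 793 CPM in day 28 replicate 6. Among the genes described, 12 of the day 7 values that stood apart belong to replicate 5, which also had the lowest contractile sum, 12357 CPM. The part of its muscle share in these values was not tested.

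The day change of 41 of the 132 genes described differed between type 1 diabetic and non-diabetic tissue, and of 3 between type 2 diabetic and non-diabetic tissue (edgeR, test of the difference). All values are log2 differences, diabetic minus non-diabetic. In matrix and fibroblast genes the type 1 change was higher: Col1a1 (1.01), Col1a2 (1.06), Col5a1 (0.72), Col11a1 (1.36), Col3a1 (0.56), Eln (2.52), Fbln1 (1.65), Postn (1.02), Cthrc1 (1.46), Comp (2.03), Cilp2 (1.40), Omd (1.22), Prelp (1.38), Acan (2.15) and Pi16 (0.97). It was also higher in Pdk4 (1.23), Mmp14 (0.52), Wif1 (1.85), Cemip (1.60), C1qtnf3 (2.92), Myoc (2.58) and Per2 (1.04). In immune and inflammatory genes the type 1 change was lower: Timd4 (-2.29), Mrc1 (-1.22), Spp1 (-0.88), Fabp5 (-0.54), Chil3 (-2.88), Csf3r (-0.62), Mmp8 (-1.33), S100a8 (-3.07), Cxcl14 (-1.18), Ctla4 (-2.08), Mzb1 (-3.31), Cma1 (-2.69), Cpa3 (-2.42), Mx1 (-0.96) and Hk3 (-1.16). It was also lower in Mmp3 (-1.79), Vit (-1.41), Hbb-bs (-2.12) and Scd1 (-2.39). In type 2 tissue the change was higher in Col1a1 (0.83), Col1a2 (0.85) and Cthrc1 (1.25). Both sets of differences share the non-diabetic libraries.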

How the results depend on the processing

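The counts of genes higher and lower at day 28 stayed within 1.5 times of 6408 and 6887 under every alternative run, from 4503 and 4802 with the contractile score to 7434 and 6801 without the filter on low counts. Leaving out 1 library gave 6230 to 6412 higher and 6629 to 6968 lower. DESeq2 gave 6697 higher and 7229 lower. Summing libraries whose names share a first number (4 sums at day 28, 6 at day 7) gave 5647 higher and 6312 lower. Replicate numbers do not pair the libraries: none of 8 same-numbered pairs had correlated deviations over 0.1 (-0.24 to 0.044). With the replicate block the counts were 5087 and 5234. The block ended 6 calls among the genes described (Mrc1, S100a8, Ighm, Pecam1, Myh1 and Atp2a1).

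With the score in the fit, Myh6 (-0.72), Myh7 (-0.88), Mrc1 (0.17) and S100a8 (0.58) changed sign. Of the genes described, 11 lost their call with it, among them Myh7, Mrc1 and S100a8. The change of Il1b was near 0 and took either sign: -0.00075 with the non-diabetic libraries alone, -0.16 with libraries of the same first number summed, -0.53 with voom, -0.20 to 0.15 with 1 library left out, and -0.26 without day 7 replicates 4 and 5. With summed libraries, Timp4, Mrc1, S100a8, Ighm and Pecam1 were not called. The cause was not tested.

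Among the ratios, Myh7 to Myh6 was -0.05 and Nppa to Myh6 was -0.97 (exact permutation adjusted p = 0.0429) with libraries summed, and Ccr2 to Adgre1 was -0.0036 with the replicate block. Each ratio that passed the threshold with single libraries also passed with summed ones. Its exact permutation adjusted p was then 0.0163, against 5.29e-05 or 0.000227 with single libraries. With 1 library left out, Myh7 to Myh6 lay between -0.02 and 0.27, Nppa to Myh6 between -0.84 and -0.59, Nppb to Myh6 between -0.39 and -0.19, Ankrd1 to Myh6 between -0.42 and -0.23, Ccr2 to Adgre1 between -0.05 and 0.10, Col3a1 to Col1a1 between 1.64 and 1.77, Comp to Col1a1 between 5.27 and 5.55, Postn to Col1a1 between 0.82 and 1.01, Acta2 to Myh11 between -2.07 and -1.80, Lyve1 to Adgre1 between 3.51 and 3.94, Spp1 to Adgre1 between -3.00 and -2.79, and Mki67 to Ptprc between -1.11 and -0.98. No alternative separates day from sequencing project, and depth limits day 7 replicate 4 most.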
